A study of Mus musculus with 8 samples.

Results

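Short chromatin loops of mouse liver that touch neither end of a protein-coding gene were examined in REV-ERBα in-situ ChIA-PET data. A loop here is a pair of genomic intervals, its anchors, joined by paired-end tags (PETs), each PET being a DNA fragment whose ends map to the 2 anchors. The loops were taken from the knock-in library of zeitgeber time (ZT) 10, where ZT counts hours after lights on. Each had a distance between anchor midpoints of 100 kb or less, anchors of 700 bp or wider, and no anchor within 5 kb of a start or end of a RefSeq protein-coding gene. The loops were thus chosen by their ZT10 listing, span and anchor width, and these values are given as a description. The rule kept 17980 loops, which were 51.3% of the 35082 short wide-anchor loops and 31.1% of the 57865 nuclear loops of that library, out of 277517 loops in the 6 libraries used. Of the 17980 loops, 8682 lay inside 1 gene body, 6704 were wholly intergenic, and 2594 had another placement. In 2181 of the last group only 1 anchor lay in a gene, and in 413 the anchors lay in different genes.

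The knock-in mice were REV-ERBa3HA/3HA animals that received no virus, with 1 liver library at ZT10 and 1 at ZT22. The other 4 libraries were all from ZT10 livers of REV-ERBaf/fREV-ERBbf/f mice given AAV8-TBG-Cre, so that dhIDR and WT share the floxed alleles and Cre. The 2 dhIDR libraries came from mice that also received AAV8-TBG-3HA-REV-ERBa-delhIDR, and the 2 WT libraries from mice given AAV8-TBG-3HA-REV-ERBa-WT. TBG is a hepatocyte promoter, so other liver cell types are not expected to express Cre or the tagged protein from these viruses. All 6 libraries were pulled down with anti-HA beads, and the labels do not say whether replicates came from separate animals. The p-values therefore measure the spread between libraries, which may be technical.

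The ZT10 knock-in library listed 320427 nuclear PETs, and the other 5 listed 104161 to 204018 each. Every library listed loops from 3 PETs upward, so an unlisted loop had 0 to 2 PETs, and listed PETs are not the sequencing depth, which is unknown. Loops that meet the span and gene-end criteria at any anchor width numbered 22011 at ZT10, 81.7% of them with wide anchors. They numbered 10119 at ZT22, 9516 and 7492 in dhIDR and 6520 and 11854 in WT. Wide anchors made up 31.6% of them at ZT22, 5.08% and 2.40% in dhIDR, and 20.2% and 12% in WT. A part of chromosome 11 at Sfi1, chr11:3131850-3244588, held 623 PETs at ZT10, 1227 at ZT22, 159 and 102 in dhIDR, and 937 and 894 in WT. Its 39 loops among the 17980 (495 PETs) weigh on several comparisons below, which are given with and without them.

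REV-ERBα, encoded by Nr1d1, is a nuclear receptor that lacks the activating helix of most family members and represses transcription by recruiting the NCoR corepressor with histone deacetylase 3. It binds single half-sites flanked by an A/T-rich stretch (RORE, shared with the ROR activators) and pairs of half-sites. In liver its protein oscillates over the day, and its best known target is Arntl (also called Bmal1), whose product drives the circadian clock. Much of its binding lies in introns and between genes, where enhancers sit, rather than at gene starts.

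No genome sequence was at hand to read the anchors themselves, so sequence is shown where a RefSeq promoter window (250 bases before to 50 after an annotated start, build GRCm38.p6) lay wholly inside an anchor. Of 32851 such windows, 610 did so, 427 of them for lncRNAs and 183 for inner starts of protein-coding genes. The distance rule does not see these inner starts because it uses the outer gene ends. A loop counted here as away from gene ends can thus have an anchor at an annotated start. Which start of a gene is its main one was not examined. The 3 windows below were chosen after values were seen, because they hold a receptor motif and their anchors carry many PETs or a clock gene. Capitals mark the half-site AGGTCA or the RORE core TAGGTCA or TGGGTCA, or their reverse complements. They are an inner start of Arntl (chr7:113207261-113207560, + strand), the lncRNA 4833411C07Rik in the region nearest to Irs2 (chr8:10899672-10899971, + strand) and an inner start of Retreg1 (chr15:25933302-25933601, + strand).
Arntl: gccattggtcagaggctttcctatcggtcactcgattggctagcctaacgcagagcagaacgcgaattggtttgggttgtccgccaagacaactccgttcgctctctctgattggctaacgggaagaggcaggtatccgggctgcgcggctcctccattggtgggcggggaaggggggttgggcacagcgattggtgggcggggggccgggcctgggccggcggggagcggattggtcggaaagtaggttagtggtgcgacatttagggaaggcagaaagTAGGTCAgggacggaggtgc
4833411C07Rik: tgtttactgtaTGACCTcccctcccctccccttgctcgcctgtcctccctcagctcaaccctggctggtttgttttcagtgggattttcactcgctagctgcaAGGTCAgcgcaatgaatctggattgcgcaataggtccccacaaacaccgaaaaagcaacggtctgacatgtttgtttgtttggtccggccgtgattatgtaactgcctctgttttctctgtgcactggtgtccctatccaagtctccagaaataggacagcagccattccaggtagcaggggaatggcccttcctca
Retreg1: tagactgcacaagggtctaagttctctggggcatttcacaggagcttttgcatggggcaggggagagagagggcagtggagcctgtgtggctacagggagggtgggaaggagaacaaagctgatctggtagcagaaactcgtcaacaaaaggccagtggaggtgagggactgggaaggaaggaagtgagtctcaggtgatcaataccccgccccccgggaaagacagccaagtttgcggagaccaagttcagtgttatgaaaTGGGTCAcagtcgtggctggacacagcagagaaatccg

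The Arntl window lay inside anchors of 5 loops with 43 ZT10 PETs, that of 4833411C07Rik inside anchors of 12 loops with 254 PETs, and that of Retreg1 inside anchors of 3 loops with 153 PETs. Searched on both strands, the half-site AGGTCA was in 22.5% of the 610 windows inside anchors and in 16.3% of all 32851 windows. The RORE core, whose TAGGTCA form contains the half-site, was in 8.20% of the windows inside anchors and in 6.45% of all windows. Half-sites repeated in the same direction with 2 bases between them (DR2) were in 0 of 610 windows and in 3 of 32851. The FOXA letters TGTTTAC or TGTTTGC were in 10.3% of the windows inside anchors and in 8.48% of all. The CEBP letters TTGCGCAA, TTGCACAA or TTGTGCAA were in 2.79% of the windows inside anchors and in 1.19% of all. The CTCF core AGGGGGC or AGGTGGC was in 13.0% of the windows inside anchors and in 16.01% of all. AGCT, the site cut by the enzyme AluI used to make the libraries, was in 87.2% of the windows inside anchors and in 77.6% of all. These shares describe windows and not binding, and windows of one gene overlap each other. Of the 610 windows 427 were of lncRNAs, and the shares were not split by gene type. The differences are thus no measure of enrichment at anchors.

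Annotated ends of lncRNA genes fell in an anchor of 1489 loops, 8.28% of all 17980. They did so in 402 gene-body loops (4.63%) and in 881 intergenic loops (13.1%). Among the 78 intergenic loops of 50 or more PETs, 31 (39.7%) had such an end in an anchor. Wider anchors have more room for an annotated end, and anchor width grew with PETs as given below. Ends of miRNA genes fell in anchors of 53 loops. The leader was Mir455, inside the collagen gene Col27a1, in anchors of 5 loops with 233 PETs. Its mature forms are shown because the seventh strongest of all the loops, with 157 PETs, ends on it, and the capitals mark the seed (bases 2 to 8).
mmu-miR-455-5p: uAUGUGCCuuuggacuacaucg
mmu-miR-455-3p: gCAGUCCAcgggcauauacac

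The loops held 117180 ZT10 PETs, 36.6% of that library's nuclear PETs, with a median of 4, a mean of 6.52 and a maximum of 251. The values of this paragraph come from the library that chose the loops and are a description without a test. Gene-body loops averaged 6.18 PETs and intergenic loops 7.37. Loops of 10 or more PETs made up 12.8% of gene-body loops, 17.1% of intergenic loops and 9.75% of the other placements. Of the 21 loops with 100 or more PETs, 5 lay in a gene body and 15 were intergenic. The median span was 20.4 kb in gene bodies and 25.5 kb between genes, and no loop was shorter than 7.61 kb. Within spans of up to 20 kb, gene-body loops averaged 6.53 PETs and intergenic loops 7.80. From 50 to 100 kb, gene-body loops averaged 5.25 and intergenic loops 6.92. The median anchor was 1033 bp wide at 3 PETs and 5240 bp at 50 or more, with a Spearman correlation of 0.79 between PETs and summed anchor width over the 17980 loops, which share 1 library and whose anchors are spanned by their own PETs. With span the correlation was −0.04. Among loops that meet the other criteria, those whose narrower anchor was up to 100 bp above the 700 bp limit averaged 3.31 PETs, and those up to 100 bp below it 3.20. Loops spanning 90 to 100 kb averaged 5.52 PETs and those spanning 100 to 110 kb, just outside, 5.48. Loops 5 to 6 kb from a gene end averaged 6.41 PETs and those 4 to 5 kb away, just outside, 6.18. The 17102 short wide-anchor loops with an anchor at a gene end had the same median of 4 PETs, a mean of 7.03 and a maximum of 374.

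**Figure D1:**
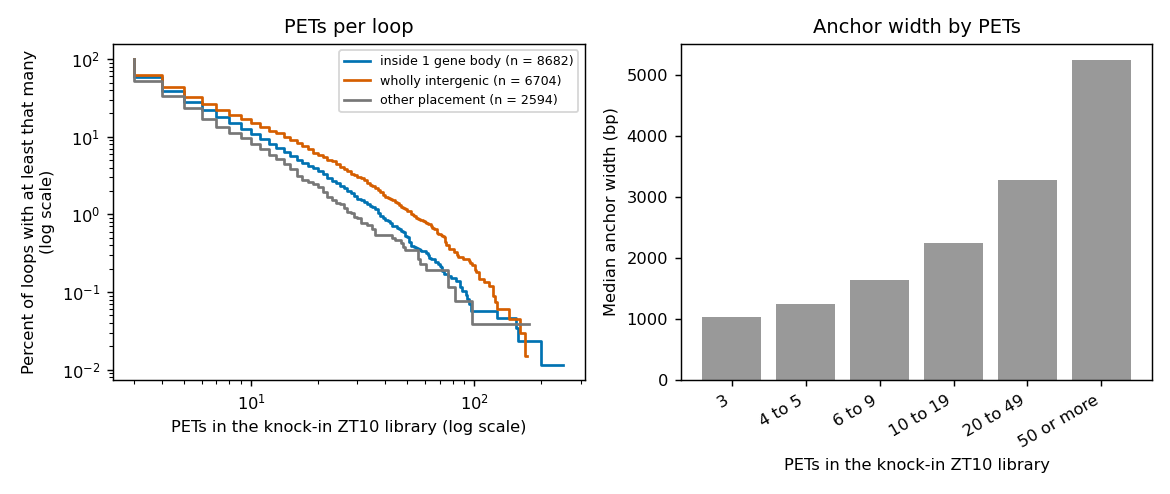
Left, percent of loops (log scale) with at least the number of ZT10 PETs on the x axis (log scale), for loops inside 1 gene body, wholly intergenic loops and other placements. Right, median anchor width in bp by PET class. The intergenic curve lies above the gene-body curve from 4 to about 100 PETs, and the median width is 1033 bp at 3 PETs and 5240 bp at 50 or more.

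Loops shared anchors. Overlapping anchors merged into 16372 places, of which 9945 (60.7%) served 1 loop, 1759 (10.7%) served 5 or more and 379 served 10 or more. The place with most loops lay 41.1 kb from Irs2, at chr8:10935281-10943545, and served 42 loops with 478 PETs. Of the 10 leading places, 3 were nearest to Irs2 and 3 lay inside Zmiz1, with 35, 29 and 28 loops. The others lay inside Nfib (32 loops) and Arntl (31 loops), 159 kb from Eea1 (30 loops) and 97.0 kb from Foxa2 (27 loops). Foxa2 encodes a pioneer factor that opens liver chromatin.

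Gene-body loops lay in 1554 genes, which were long, with a median of 109 kb against 17.2 kb for all 21887 protein-coding genes. A gene shorter than about 20 kb has little room for a loop of this kind, and all 1554 were longer than 20 kb, being 15.5% of the 10038 genes of that length. PETs per gene and gene length had a Spearman correlation of 0.21 over the 1554 genes. The 12 genes with most gene-body PETs held 10.5% of them. They are ordered here by what they encode, with ZT10 PETs first and a count per 100 kb of gene where levels are compared.

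Transcription factors, a co-regulator and an RNA-binding protein were among the gene-body leaders. Zmiz1, a co-activator of the PIAS-like family, held 103 loops with 833 PETs, or 399 PETs per 100 kb, and its strongest single loop had only 40. Loops of any anchor width inside Zmiz1 had 863 PETs at ZT10, 6 at ZT22, 15 and 0 in dhIDR, and 0 and 7 in WT. Nfib, a nuclear factor I family member, held 402 PETs (186 per 100 kb) and its relative Nfia 407 (75.3 per 100 kb). Neither had a loop above 24 PETs, so their totals were spread over 73 and 80 loops. At any width Nfib had 415 PETs at ZT10, against 8 at ZT22, 3 and 9 in dhIDR, and 0 and 3 in WT. Rbm47, an RNA-binding protein, held 437 PETs in 70 loops (323 per 100 kb).

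Signalling and receptor genes formed a second set. Dapk1, a calcium-dependent kinase linked to cell death, held 521 PETs in 46 loops (323 per 100 kb). Prkce, the epsilon isoform of protein kinase C, held 475 PETs in 33 loops, and 251 of them were in 1 loop, the strongest of all 17980. That loop joined chr17:86495323-86507989 to chr17:86521098-86533843 (95% Poisson interval 221 to 284 PETs, counting error only). It had 6 PETs at ZT22, 3 in dhIDR 1 and none listed in the other 3 libraries. Shb, an adaptor of tyrosine kinase receptors, held 408 PETs (379 per 100 kb), and loops of any width inside it had 411 PETs at ZT10, 4 at ZT22, 4 and 0 in dhIDR, and 0 and 0 in WT. Prlr, the prolactin receptor, held 402 PETs in 49 loops. Itpr1, a calcium channel of the endoplasmic reticulum, held 444, Vps13d, a lipid transfer protein, 423, and Nav2, a cytoskeletal protein, 394 with 154 in 1 loop. Per 100 kb these last 3 had 131, 131 and 60.5 PETs. At each of the 12 genes except Sfi1 and at any anchor width, the ZT10 library listed 411 to 863 PETs and each of the other 5 libraries 0 to 46. The 12 genes were ranked by their ZT10 PETs, so a higher ZT10 count at them follows from the choice. Over all loops of 100 kb or less away from gene ends, at any width, ZT10 listed 129976 PETs and the other libraries 21814 to 41695.

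Sfi1, a centrosomal gene, differed from the other 11. Loops of any width inside it had 502 PETs at ZT10, 656 at ZT22, 130 and 78 in dhIDR, and 439 and 668 in WT. It also had the most PETs per 100 kb of the 12 genes, 692. The ZT22 value and the second WT value exceed that of ZT10, although those libraries list fewer PETs in all. How uniquely reads map to this region cannot be judged from the loop files and was not tested, so its PETs cannot be taken as looping without that check.

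Intergenic loops had 1376 protein-coding genes as their nearest, at a median distance of 41.5 kb from the loop to the gene. For 1568 loops (23.4%) the gene lay over 100 kb away, and 246 loops enclosed a gene. Nearest does not mean regulated, and no contact of these anchors with the gene's ends is implied. Together, 2622 of the 21887 protein-coding genes (12%) held a loop or were nearest to one, and 308 did both.

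Insulin signalling genes were among the intergenic leaders. Irs2, the adaptor that carries the insulin receptor's signal in liver, was nearest to 150 loops with 1733 PETs, 3.51% of all intergenic PETs. Of these loops, 129 with 1651 PETs lay on the lower-coordinate side of the gene and reached out to 156 kb, 14 with 57 PETs lay on the other side, and 7 with 25 PETs enclosed it. The strongest joined chr8:10876901-10882541 to chr8:10908765-10914147 with 127 PETs, and 41 of the 150 loops had 10 or more. At any width the loops nearest to Irs2 had 1798 PETs at ZT10, 13 at ZT22, 24 and 23 in dhIDR, and 13 and 10 in WT. The window of 4833411C07Rik printed above lies in this region, on the lower-coordinate side of Irs2. Foxo1, the transcription factor that insulin signalling expels from the nucleus, was nearest to 57 loops with 624 PETs, all at least 52.5 kb from the gene. Pik3r1, the regulatory subunit of phosphoinositide 3-kinase, was nearest to 59 loops with 399 PETs.

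**Figure D2:**
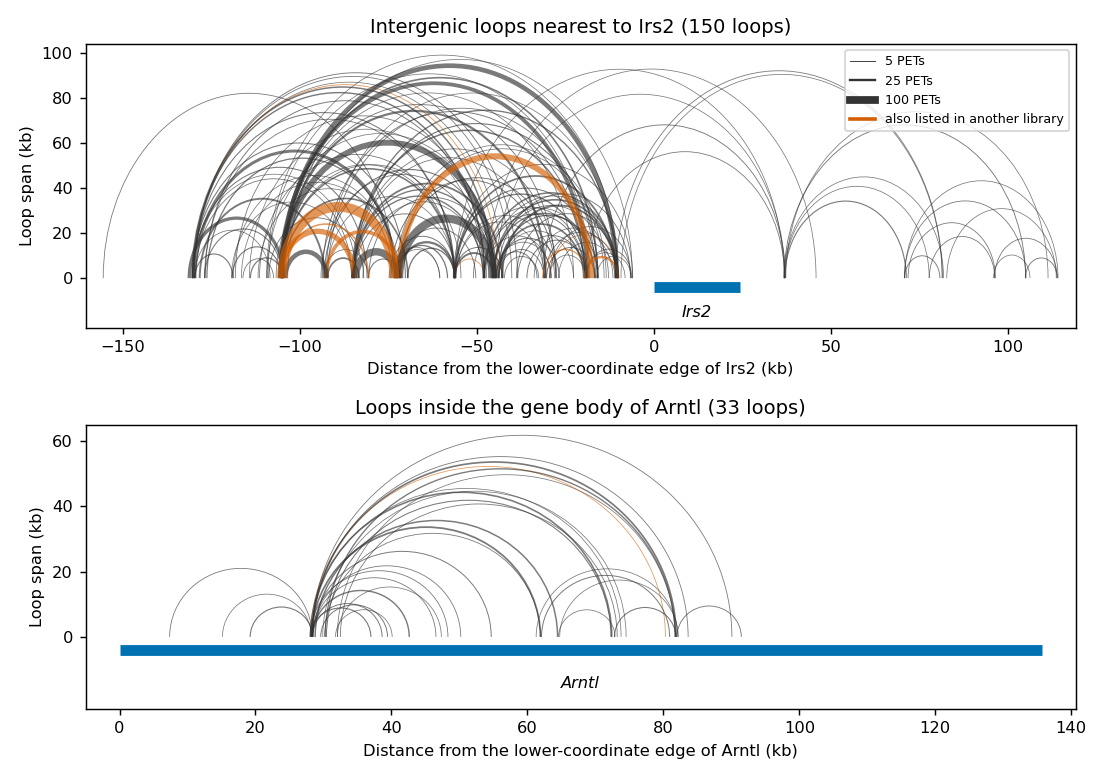
Intergenic loops nearest to Irs2 (top) and loops inside Arntl (bottom) in the ZT10 knock-in library, by distance in kb from the lower-coordinate edge of the gene. Each arc joins the midpoints of 2 anchors, its height is the span in kb, its line width grows with PETs, and orange arcs have both anchors in a loop of another library. At Irs2, 129 of 150 loops lie on the lower-coordinate side, and at Arntl 27 of 33 loops meet in 1 merged anchor inside the gene.

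Genes of transcriptional regulation formed the next set. Tbl1xr1, a subunit of the NCoR corepressor complex that REV-ERBα recruits, was nearest to 39 loops with 420 PETs. Loops of any width near it had 429 PETs at ZT10, 47 at ZT22, 48 and 37 in dhIDR, and 40 and 45 in WT. These counts in the other 5 libraries were higher than at any other of the 12 intergenic leaders, yet only 1 of its ZT10 loops was listed again, in ZT22. Irf2bp2, a corepressor, was nearest to 46 loops with 400 PETs, and Id2, an inhibitor of helix-loop-helix factors, to 47 loops with 354. The other leaders were Lacc1 (619 PETs, at least 119 kb away), Tomm20 (539), Nudt4 (446), Arhgap5 (415), Eea1 (395) and Phlda1 (318). They encode an immunometabolic enzyme, a mitochondrial import receptor, an inositol phosphate hydrolase, a GTPase-activating protein, an endosomal tether and a pleckstrin-like protein. Lacc1 had 0 listed PETs at ZT22 and in both dhIDR libraries, and 4 and 6 in WT. Across the 12 intergenic leaders and at any width, the ZT10 library listed 336 to 1798 PETs and each of the other 5 libraries 0 to 48. These leaders were also ranked by ZT10 PETs, so the contrast is built into the choice and is a description.

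**Figure D3:**
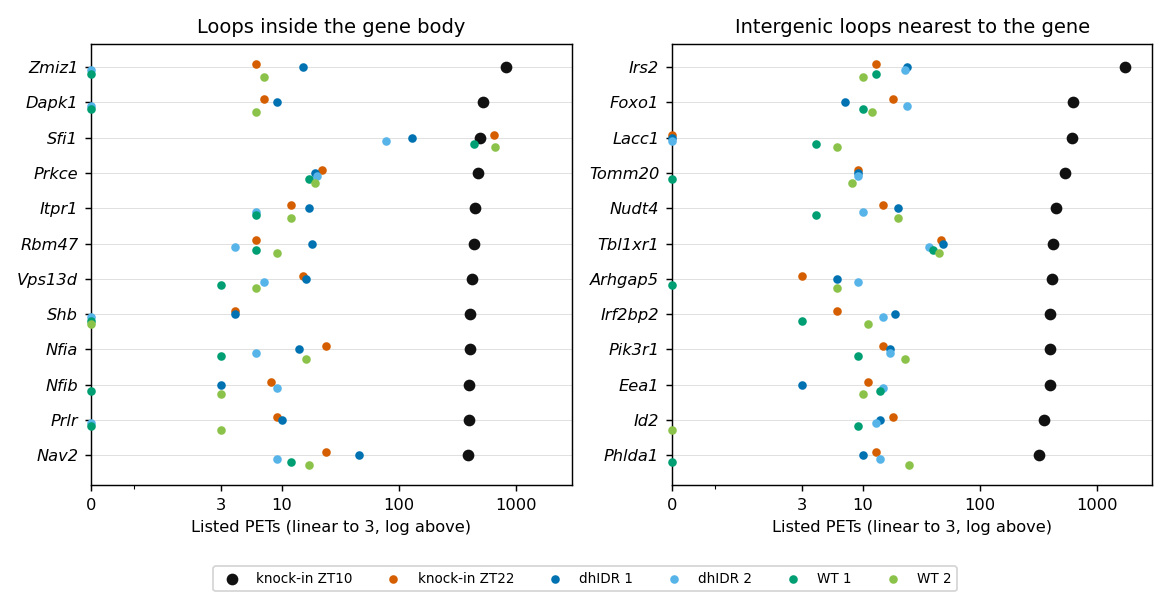
Listed PETs per library (linear to 3, log above) for the 12 genes with most gene-body PETs (left) and the 12 nearest genes with most intergenic PETs (right), in the knock-in ZT10 (wide-anchor loops), knock-in ZT22, dhIDR and WT libraries (loops of any width away from gene ends). The ZT10 points lie between 318 and 1733 and, outside Sfi1, every other library lies between 0 and 48. The genes were ranked by their ZT10 PETs.

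Loops with another placement were led by the Hopx loop, with 177 PETs. Next came loops at Slc16a12, a monocarboxylate carrier family member (98 PETs), Tnfrsf1b, a receptor for tumour necrosis factor (82), Slc45a3 (76), Adra1b, an adrenergic receptor (76), and Mtmr7 (61). Of these 6 loops, that of Hopx was listed in dhIDR 1 with 4 PETs, that of Tnfrsf1b in WT 1 with 3, and the other 4 in no other library. Per length, genes outside the 12 leaders were also dense in gene-body PETs. Col27a1 had 272 PETs per 100 kb, and Rnf43, a ubiquitin ligase that lowers Wnt signalling, had 230 per 100 kb, of which 1 loop made up 95 of 167 PETs. Rbpms, an RNA-binding protein, and Ergic1, a protein of the early secretory pathway, each had 226 per 100 kb, with no loop above 34 and 16 PETs.

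The strongest single loops were not all at these genes. After Prkce (251 PETs) came Sfi1 (199) and a loop at Hopx with 177 PETs, whose anchors had another placement. Cpne8, a calcium-dependent membrane-binding protein, was 85.7 kb from a loop of 173 PETs. Arhgap5 was 22.6 kb from a loop of 169 PETs, whose anchors hold the ends of the lncRNAs Gm35071 and Gm35135. Nedd4l, a ubiquitin ligase, was 5.66 kb from a loop of 161 PETs. Col27a1 (157), Nav2 (154) and Tbl1xr1 (143) followed. Of these 9 loops, all but Sfi1 had at most 10 PETs in any other library, and 2 (those of Arhgap5 and Tbl1xr1) were listed in none.

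Of 19 core clock genes, 7 held a loop or were nearest to one, against 12% of all protein-coding genes. The median clock gene was 30.4 kb long, against 17.2 kb for all genes, so this share is no measure of selectivity. The other 12 clock genes, Nr1d1 and Nr1d2 among them, had no loop of this kind. Rora, the activator that competes with REV-ERBα for the RORE, held 366 PETs in 52 loops over its 735 kb (49.8 per 100 kb). Arntl held 205 PETs in 33 loops over 136 kb (151 per 100 kb). In Arntl, 27 of the 33 loops, with 178 PETs, met at chr7:113205621-113211840, a merge of overlapping anchors that starts 27.2 kb inside the gene. It contains the printed window, an annotated start of Arntl with a RORE core. The whole window lay inside anchors of only 5 loops, with 43 PETs. From the merged place 24 loops with 163 PETs ran toward the far end of the gene and 3 with 15 PETs toward the near end. No Arntl loop had more than 17 PETs and only 1 was listed in another library. At any width Arntl and its surroundings had 8 PETs at ZT22, 9 and 3 in dhIDR, and 0 and 4 in WT. Npas2, a partner of ARNTL, had 12 PETs inside and 127 in 16 intergenic loops 6.15 to 60.6 kb away. Hlf, a PAR bZIP output factor, had 110 PETs, and its antagonist Nfil3 29. Per2 had 13 and Cry1 6, both repressors of the clock's other limb.

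The metabolic lists are given by counts, beside the 12% of all protein-coding genes and a median of 0 PETs per gene. The median gene of these 5 lists was 20.7 to 30.5 kb long, against 17.2 kb for all genes, so their shares are no measure of selectivity. In lipogenesis, 17 of 30 genes held a loop or were nearest to one (56.7%), with a median of 4 PETs per gene. Elovl6, a fatty acid elongase, led with 163 PETs inside and 138 outside, and Lpin1, a phosphatidate phosphatase, held 185. Elovl6 had 0 PETs listed at ZT22, 0 and 3 in dhIDR, and 6 and 0 in WT. In glucose metabolism 9 of 17 genes did so, led by Irs2 and Foxo1. In cholesterol and bile acid metabolism 8 of 21 did so, led by Scarb1, the receptor for high-density lipoprotein, with 144 PETs. Cyp7a1, which starts bile acid synthesis from cholesterol, followed with 77. Scarb1 had no listed PETs of such loops in any of the other 5 libraries. Leaders of these lists were ranked by ZT10 PETs, so a higher ZT10 count at them follows from the choice. In fatty acid oxidation 8 of 20 did so, led by the nuclear receptor Ppara (116) and the acyl-CoA synthetase Acsl1 (101). In xenobiotic metabolism 9 of 18 did so, led by Por (60), the electron donor of cytochrome P450 enzymes, and Cyp2e1 (43).

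The same counts for other lists are read beside the 12% and the median length of 17.2 kb over all protein-coding genes. Of 20 liver transcription factors (median length 18.4 kb), 12 held a loop or were nearest to one. Nr5a2, an orphan nuclear receptor, held 263 PETs inside its gene, and Foxa2 was nearest to 50 intergenic loops with 268. Of 11 nuclear corepressor genes, whose median length was 91.0 kb, 7 were touched, led by Tbl1xr1 (465 PETs in and around it) and Tle3 (140). Among genes of secreted hepatocyte proteins (median length 8.60 kb) 5 of 24 were touched, Igf1 with 108 PETs and Alb, the albumin gene, with 98. Among acute-phase genes (median length 4.15 kb) 5 of 18 were touched, with Crp at 36 and Il6ra at 23.

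Among markers of other liver cell types, 4 of 8 endothelial and 1 of 6 cholangiocyte genes held or were nearest to a wide-anchor ZT10 loop, against 12% of all protein-coding genes. They were Pecam1 and Stab2 (13 PETs each), Tek (7), Cdh5 (5, in 1 loop 599 kb away) and Sox9 (25, at 47.9 kb or more). None of the 8 Kupffer, 11 stellate or 7 lymphocyte genes did so at ZT10. The median endothelial gene was 44.6 kb long, and the medians of the other marker lists were 10.2 to 28.0 kb. Over all protein-coding genes the median was 17.2 kb, so these shares are no measure of selectivity. At any anchor width the other libraries did list PETs of loops inside or nearest to some of these genes, at distances not given here. Cdh5 had 12 at ZT22, 14 and 17 in dhIDR, and 3 and 32 in WT. Ptprc, a leukocyte gene, had 17 at ZT22, 19 and 7 in dhIDR, and 13 and 5 in WT. The stellate markers Hand2 and Reln had 3 to 10 PETs in each of the 5 libraries, and the Kupffer marker Marco had 6 in dhIDR 1 and 6 in WT 2. Loops do not measure expression, so these counts do not give the cell types in the tissue.

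Loops of this kind were rarely listed again, in libraries unlike that of ZT10. The median span over all nuclear loops was 40.1 kb at ZT10 and 524 to 1071 kb in the others. Loops of 100 kb or less away from gene ends, at any width, averaged 5.91 PETs at ZT10 and 3.27 to 3.82 in the others. The part of these differences in the shares below was not tested. A loop was taken as listed again where both anchors overlapped a loop of another library by 1 bp or more. At ZT22, 252 of the 17980 loops (1.40%, 95% Wilson interval 1.24 to 1.58, counting error only) were listed again, against 1.46% of all short wide-anchor ZT10 loops. In dhIDR 166 (0.923%) and 59 (0.328%) were, against 0.912 and 0.388% of all short wide-anchor loops. In WT 84 (0.467%) and 99 (0.551%) were, against 0.436 and 0.527%. Across the 5 libraries 552 were listed in at least 1, against 3.28% of all short wide-anchor loops, 57 in at least 2 and 8 in all 5. All 8 were in Sfi1. Without the chromosome 11 region 519 were listed in at least 1, 27 in at least 2, 5 in 3 and none in more.

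The share listed again grew with the ZT10 count. It was 1.16% of loops of 3 PETs and 39.1% of loops of 50 or more, against 1.17% and 42.4% of short loops at gene ends. Anchor width grew with PETs too, from a median of 1033 bp at 3 PETs to 5240 bp at 50 or more. A wider anchor has more chance to overlap, and its part in this growth was not tested. Compared within libraries, the share for loops away from gene ends minus that for other short wide-anchor loops was −0.02 percentage points on average, with 3 of 5 libraries above 0 (exact two-sided sign-flip permutation test, p = 0.625, smallest possible 0.063). Without the chromosome 11 region it was −0.11 points, below 0 in 5 of 5 libraries (exact permutation p = 0.063). The share for gene-body loops minus that for intergenic loops was 0.04 points (4 of 5 libraries above 0, exact permutation p = 0.5625). Without chromosome 11 it was −0.21 points, below 0 in 5 of 5 (exact permutation p = 0.063). With 5 libraries no such test can reach 0.05, and the higher mean for gene bodies was not seen without the chromosome 11 region. With anchors widened by 5 kb and the region kept, gene-body minus intergenic was 0.36 points (above 0 in 5 of 5 libraries, exact permutation p = 0.063). Away minus other short loops was then −0.33 points (above 0 in 1 of 5, exact permutation p = 0.1875).

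**Figure D4:**
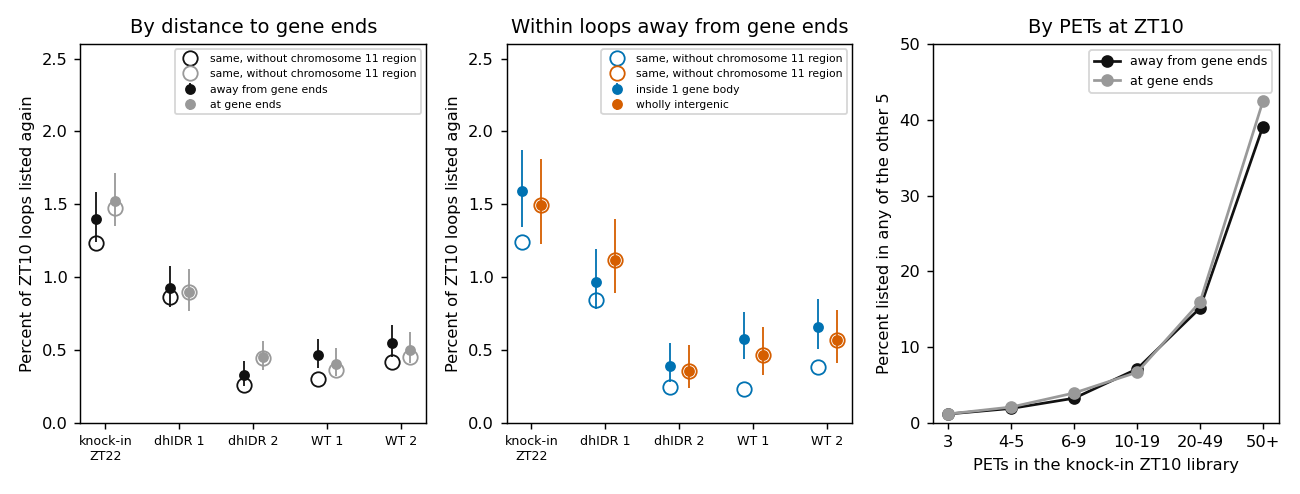
Percent of ZT10 loops with both anchors in a loop of another library, for loops away from and at gene ends (left) and inside gene bodies and between genes (middle), by library, with 95% Wilson intervals (filled) and without the chromosome 11 region (open), and by PETs at ZT10 (right). Shares lie between 0.231% and 1.59% in each library and reach 39.1% and 42.4% for loops of 50 or more PETs.

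Seen from the other libraries and without chromosome 11, wide-anchor loops away from gene ends matched a ZT10 loop at a higher rate than narrower ones, while narrower matches were more numerous in dhIDR 1, dhIDR 2 and WT 2. At ZT22, 139 of 3161 such loops (4.40%) overlapped a ZT10 loop at both anchors, and 71 of 6919 narrower ones (1.03%) did. In dhIDR 1 these shares were 15.8% (73 of 463) and 0.875% (79 of 9031), and in dhIDR 2 6.55% (11 of 168) and 0.452% (33 of 7307). In WT 1 they were 2.32% (30 of 1291) and 0.443% (23 of 5196), and in WT 2 2.22% (30 of 1350) and 0.403% (42 of 10430). A wider anchor also has more chance to overlap, and its part in these shares was not tested. None of the matching wide loops had more than 10 PETs in its own library.

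Apart from Sfi1, the loops listed in most other libraries were few and named. The Nedd4l loop had 161 PETs at ZT10, 4 at ZT22, and 4 and 4 in dhIDR, with none listed in WT. The Nav2 loop had 154 PETs at ZT10, 7 at ZT22, 3 and 0 in dhIDR and 0 and 3 in WT. A loop 81.5 kb from Irs2 had 67 PETs at ZT10, with 0 and 6 in dhIDR and 3 and 3 in WT. Loops near Cep85l (66 PETs) and Clec2d (39) were also listed in 3 other libraries. Those at Prkce (251), Cpne8 (173), Col27a1 (157), Stt3b (105), Epb41l4b (67), Lpin1 (54), Ptpn1 (39), 3110040M04Rik (33) and Igfbp2 (29) were listed in 2. The Lpin1 loop had 5 PETs in dhIDR 1 and 5 in WT 1.

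The place of the loops differed between libraries. Of loops of 100 kb or less away from gene ends at any anchor width, 47.4% lay inside a gene body at ZT10 and 38.3% at ZT22. In dhIDR the shares were 34.9% and 34.1%, and in WT 35.5% and 35.0%. The intergenic share was 37.7% at ZT10, against 51.7% at ZT22, 51.3% and 52.3% in dhIDR, and 53.6% and 53.1% in WT. The gene-body share of the knock-in ZT10 library was the highest of the 6 and its intergenic share the lowest. The dhIDR and WT libraries, also from ZT10, had lower gene-body shares than the ZT22 library. The high share is thus that of 1 knock-in library and not of ZT10 libraries in general. With 1 library a time, the difference between the knock-in times has no replicate check.

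The comparison of dhIDR with WT asks whether PETs at these loops differ when REV-ERBα lacks the segment that the labels call hIDR. PETs of loops matching at both anchors made up 36.1 and 14.1 per 10000 listed PETs in dhIDR and 90.6 and 38.9 in WT, a difference of −39.6 (exact two-sided permutation p = 0.333, the smallest possible with 2 against 2). Without the chromosome 11 region the values were 30.6 and 10.5 in dhIDR and 17.5 and 12.4 in WT, a difference of 5.60 (exact permutation p = 1). The sign of the difference turned without that region, and the dhIDR values then lay on both sides of the WT values. Among wide-anchor loops alone and without the region, as a share of the PETs in such loops, the values were 1045 and 422 per 10000 in dhIDR and 184 and 168 in WT. There both dhIDR values lay above both WT values (exact permutation p = 0.333, the smallest possible). In that count dhIDR has few wide-anchor loops, 463 and 168 of the short ones away from gene ends, against 1291 and 1350 in WT.

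Per locus, the short wide-anchor ZT10 loops formed 5402 groups of overlapping loops, and 1944 of these held no loop at a gene end. Those 1944 held 5677 loops with 33859 ZT10 PETs, 31.6% of the loops away from gene ends. Most loops away from gene ends thus lay in loci shared with loops at gene ends, which the counts for such loops alone do not cover. Of 864 loci with 10 or more PETs over the 4 libraries, edgeR's quasi-likelihood test called 1 at an adjusted p under 0.05 (0.116%), the locus of Sfi1, which is not made of loops away from gene ends alone. Among the 164 tested loci made of such loops alone it called 0. Of the 164, 4 had an unadjusted p under 0.05, 1 of them higher in dhIDR. Over all 864 loci, 22 did, 12 of them higher in dhIDR. DESeq2 also called 0 of the 164 and 1 of the 864. The smallest adjusted p among the 164 was 0.995 in edgeR. The 164 log2 ratios of dhIDR over WT had a median of 0.04, and 83 were above 0, beside a median of 0.17 and 465 above 0 over all 864. The biological coefficient of variation was 1.09, so the 4 libraries give little precision per locus, and the absence of calls does not show that the constructs act alike. Across the 864 loci, the log2 normalised PETs of replicates had a Pearson correlation of 0.07 between the dhIDR libraries and 0.15 between the WT libraries, as a description over loci that share libraries.

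The loci with the smallest p in each direction were chosen after their values were seen, so they do not represent the spread between replicates. The locus at Cpne8, at chr15:90249671-90422134, had 9 and 0 PETs in dhIDR and 22 and 22 in WT (log2 ratio −2.73, SE 1.14, edgeR adjusted p = 0.995). Its strongest loop, with 173 PETs at ZT10, was listed in both WT libraries with 10 and 8 PETs and in neither dhIDR library. Outside the chromosome 11 region it was the only loop away from gene ends listed in both WT libraries and in no dhIDR library. There, 5 loops away from gene ends were listed in both dhIDR libraries and in no WT library. Such counts were not taken for short wide-anchor loops at gene ends. They are a description, and a difference between the constructs was not tested on them. Ppp2r5c, a phosphatase subunit, had 0 and 0 PETs in dhIDR and 5 and 12 in WT. A locus near Eea1 had 0 and 0 in dhIDR and 11 and 3 in WT. On the other side, a locus near the zinc transporter Slc39a11 had 15 and 4 PETs in dhIDR and 0 and 0 in WT, and one in Akap13, an anchoring protein for protein kinase A, had 6 and 9 in dhIDR and 0 and 0 in WT. A locus at Rreb1, a zinc finger factor, is named for its span and not for its p. It was the largest of the loci made of loops away from gene ends alone (511 kb, 110 loops, 727 ZT10 PETs). It had 73 and 44 PETs in dhIDR and 27 and 27 in WT, and edgeR did not call it. These counts are not scaled to the libraries, which listed 178426 and 160635 PETs in dhIDR and 104161 and 204018 in WT. Of the 164 loci, 18 had 0 PETs in both dhIDR libraries and 19 had 0 in both WT libraries. Of the same loci, 36 were listed in all 4 libraries and 18 in 1 only. These counts were not taken over all tested loci, so whether they differ from those of other short ZT10 loci was not tested.

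**Figure D5:**
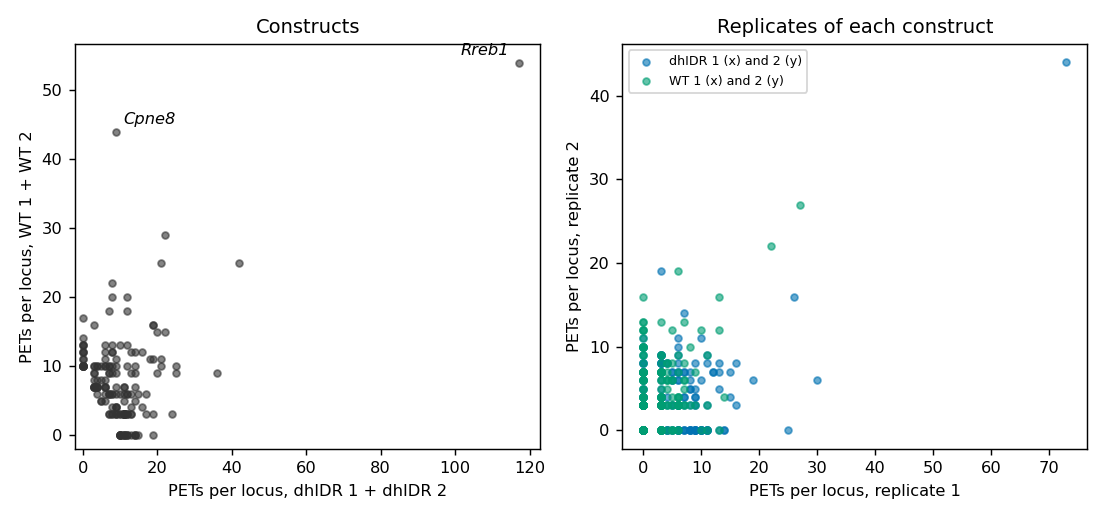
PETs in each of the 164 tested loci made of loops away from gene ends alone. Left, the sum of both dhIDR libraries (x) against the sum of both WT libraries (y), with Rreb1 and Cpne8 labelled. Right, replicate 1 (x) against replicate 2 (y) of each construct. The 164 loci hold at most 117 PETs over both dhIDR libraries and 54 over both WT libraries, and 36 of them are listed in all 4 libraries.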

How the data were processed

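In-situ ChIA-PET of mouse liver was analysed in 6 anti-HA libraries of a series of 8 samples. Samples pulled down with anti-CTCF (2) were not analysed here. A deposited file holds 1 library's anchor pairs with a raw PET count for each pair. The counts are on mm10, per the submitters' processing notes. Per the labels' protocols, nuclei were fixed with formaldehyde and EGS, cut with AluI, ligated, pulled down and tagmented. The aligner and the duplicate filter, like the program that called loops, are not given in the sources used here. Starts were read as 0-based, and mitochondrial loops were left out.

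Genes were the 21887 protein-coding genes of RefSeq GRCm38.p6, and all 238 entries of 15 gene lists matched. A loop is inside a gene body when 1 gene contains both anchors, and intergenic when no gene overlaps an anchor. Groups came from the sample titles. Loci were tested with edgeR 4.0.16 (quasi-likelihood, TMM factors on all listed PETs, 10 PETs or more over the 4 libraries, Benjamini-Hochberg at 0.05) in R 4.3.3, with DESeq2 1.42.0 as an alternative. The edgeR standard error is the log2 ratio over the square root of F. The procedure was tested on simulated data, where it recovered changes only at greater depth and smaller spread than these libraries have. Single values per library were compared by exact permutation tests. The knock-in times have 1 library each and no test. The members, the lists and the rule for named genes were chosen with earlier results of these data known. That rule took the 12 leading genes of each placement, core clock genes, 2 leaders of each other list, genes of the 10 strongest loops and the 10 merged anchors with most loops, and up to 15 genes of loops listed in 2 or more other libraries. Of the 10 strongest loops, 1 is not reported here. The planned anchor sequences and motifs were not read because no genome was at hand, so promoter windows and miRNAs of RefSeq stand in. The settings without the chromosome 11 region were chosen after seeing the data. The other alternatives changed widths, spans, distances, filters, normalization and libraries.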

Additional observations from a re-analysis of the deposited data

How the results depend on the processing

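The share listed again for loops away from gene ends minus that for other short loops turned to 0.000536 points at a distance of 10 kb from gene ends and to 0.0315 at spans of 50 kb or less, and it lay between −0.0426 and 0.00388 with each library left out. Gene-body minus intergenic turned to −0.0160 with anchors of 1000 bp or wider, −0.333 for loops of 10 or more PETs and −0.212 without the chromosome 11 region. Anchors widened by 5 kb kept both signs but moved the values to −0.333 and 0.360 points. The dhIDR minus WT difference in matched PETs per 10000 turned to 23.7 among loops with both anchors 700 bp or wider, 7.32 with all loops inside the loci and 5.60 without the chromosome 11 region. Wide-anchor loops without that region, as a share of wide-anchor PETs, gave 558. With the region kept and all widths, the difference lay between −65.5 and −13.8 with each library left out. Without the region, leaving out 1 library gave −4.48, 3.01, 8.19 and 15.7. With anchors of 1000 bp or wider the loops numbered 11484, of which 5504 were in gene bodies and 4412 intergenic. Counting gene bodies of all RefSeq genes left 3478 intergenic loops. Of all loci, edgeR called 1 when either dhIDR library was left out, 0 without WT 1, 0 without WT 2 and 0 without the chromosome 11 region, which holds the called locus. Over the shares, PET differences, loop counts and locus calls, 14 recomputed values changed sign and 7 counts moved by more than 1.5 times. The other 61 kept their sign, or a count within 1.5 times, and the cause was not tested. Replicates share only a number between dhIDR and WT, and the deviations of same-numbered libraries had a correlation of 0.02 over 864 loci. With the replicate block edgeR called 1 locus, at Sfi1 again, and 0 of those made of loops away from gene ends alone.

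The depth limits what can be seen. An unlisted loop had 0 to 2 PETs, so a loop missing from a library with fewer listed PETs is not shown to be absent. The knock-in times have 1 library each, so no comparison of ZT10 with ZT22 has a replicate check. PETs are counted after amplification, so intervals cover counting error only.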
